A study of Mus musculus with 5 samples.

Results

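Basement membrane genes were followed in mouse embryonic stem (ES) cells with and without C3G. The 10 genes encode the laminin chains Lama1, Lama5, Lamb1, Lamb2 and Lamc1, the type IV collagen chains Col4a1 and Col4a2, type XVIII collagen (Col18a1), nidogen (Nid1) and perlecan (Hspg2). They were taken by name, with earlier results of these data known, out of 55147 gene symbols in the table. RNA had been sequenced from 3 samples of wild type (WT) cells, which are the E14Tg2a parent line, and from 2 samples of C3G-/- cells, called C3G null here. In the C3G null cells, exons near the 5′ end of the C3G gene Rapgef1 had been replaced by a puromycin cassette with CRISPR, and single colonies had been picked. All samples were untreated and grown on gelatin in serum with LIF. The labels do not say from which knockout clone each C3G null sample came, nor whether replicates were separate cultures, so p-values measure the spread between these samples, which may be partly technical. WT stands here for the parent line and not for the vector control clones, so that clonal selection cannot be told apart from the loss of C3G.

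Basement membranes are thin sheets of extracellular matrix that lie under epithelia and around early embryonic tissues. A laminin is a trimer of an α, a β and a γ chain that assembles on the cell surface into a network. Type IV collagen forms a further network from trimers of its own, and nidogen and the heparan sulfate proteoglycans perlecan and agrin link both networks to each other and to growth factors. In the early embryo the basement membrane made by extraembryonic endoderm and epiblast underlies the polarity and survival of the epiblast, and ES cells make laminin and type IV collagen of their own in culture.

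Values are given in TPM, a measure of RNA abundance that is already set against transcript length and the total of the library, with all transcripts of a gene added up. Small non-coding and ribosomal RNAs together, mitochondrial ones included, held 62.9% to 67.2% of the TPM in WT and 69.6% to 77.8% in C3G null samples. A higher share lowers the TPM of other genes in proportion. Each sample was therefore divided by the median of the ratios of its genes to their mean over samples ("scaled TPM"), and values from TPM as deposited are given as well where they differ most. The scaling moved the median log2 fold change of the 12518 tested genes from -0.55 to 0.0052. The depth behind each value is unknown, because TPM hold no read numbers, and counting error could not be computed. Rapgef1 was at 8.61 ± 0.145 scaled TPM (SD, n = 3) in WT against 6.23 ± 0.148 (SD, n = 2) in C3G null cells. It changed by -0.41 on the log2 scale (limma adjusted p = 0.00444), and by -1.02 as deposited (adjusted p = 0.000304). The authors still detected transcripts of the C-terminal exons in the knockout clones, but saw neither full-length nor truncated C3G protein. The ES cell markers Pou5f1, Nanog, Sox2, Esrrb, Zfp42 and Tdgf1 together had 633 to 749 scaled TPM in WT and 780 to 793 in C3G null samples, but 827 to 851 and 491 to 706 TPM as deposited. None was called at an adjusted p under 0.05 from limma, with 2 at an unadjusted p under 0.05.

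In C3G null cells Lama1 was higher and Lama5, Lamb2, Col4a2, Col18a1 and Hspg2 were lower than in WT, while Lamb1, Lamc1, Col4a1 and Nid1 did not pass the threshold. These are 1 higher and 5 lower of 10 genes, all of which passed the filter on low values. Among all tested genes 30.7% passed the limma threshold (adjusted p under 0.05), 14.1% as higher and 16.6% as lower. The median log2 fold change of the 10 genes was -0.28, against 0.0052 over all tested genes. With TPM as deposited 9 of the 10 were lower, where 58.2% of all genes passed, 56.8% as lower and 1.45% as higher, and Lama1 did not pass. In scaled TPM the groups did not overlap for 6 genes, of which 5 were lower and 1 higher in both C3G null samples, where 29.3% and 29.5% of all tested genes were so placed. As deposited 9 of the 10 were lower in both C3G null samples, where 75.7% of all tested genes were.

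**Figure D1:**
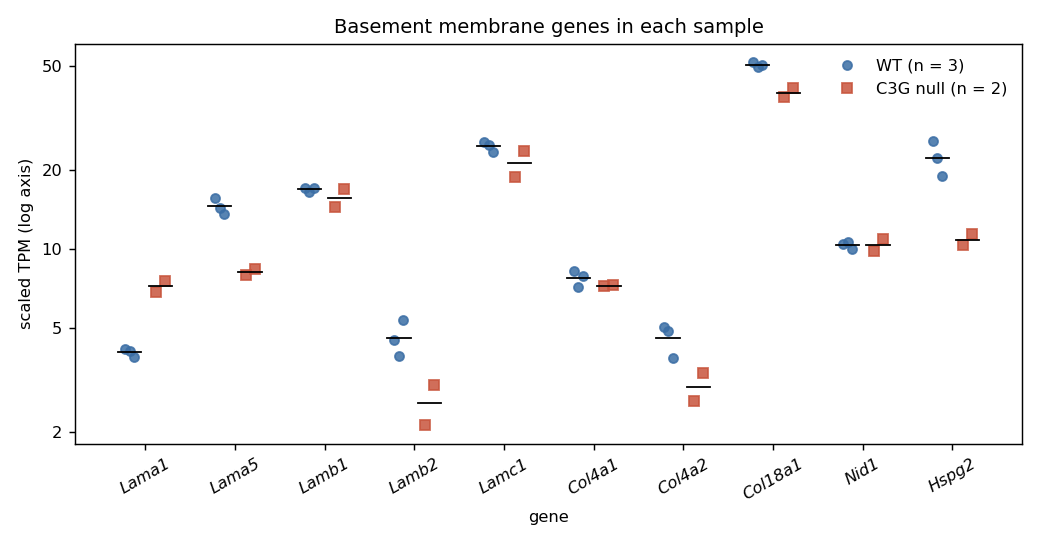
Scaled TPM (log axis) of the 10 genes in each of the 3 WT samples (circles) and 2 C3G null samples (squares), with a line at each group mean. Lama1 lies higher in both C3G null samples, Lama5, Lamb2, Col4a2, Col18a1 and Hspg2 lie lower, and the groups overlap for the other 4 genes.

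These genes have long transcripts, between 3150 and 14045 bases on average against a median of 2187 bases over tested genes. Across the 12514 tested genes with a known length, which are not independent replicates, log2 fold change and length had a Spearman correlation of -0.31, and of -0.017 after a smooth trend with length and GC content was subtracted from each sample. Of the 3515 tested genes at least as long as the shortest of the 10, 25.2% were lower and 7.85% higher in scaled TPM. After the correction Hspg2 and Lama5 were still lower and Lama1 was still higher, where 31.1% of all genes passed, 14.2% as lower and 16.9% as higher, and the other 7 genes did not pass. The plot of the fold changes under the 3 treatments sets these values side by side.

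**Figure D2:**
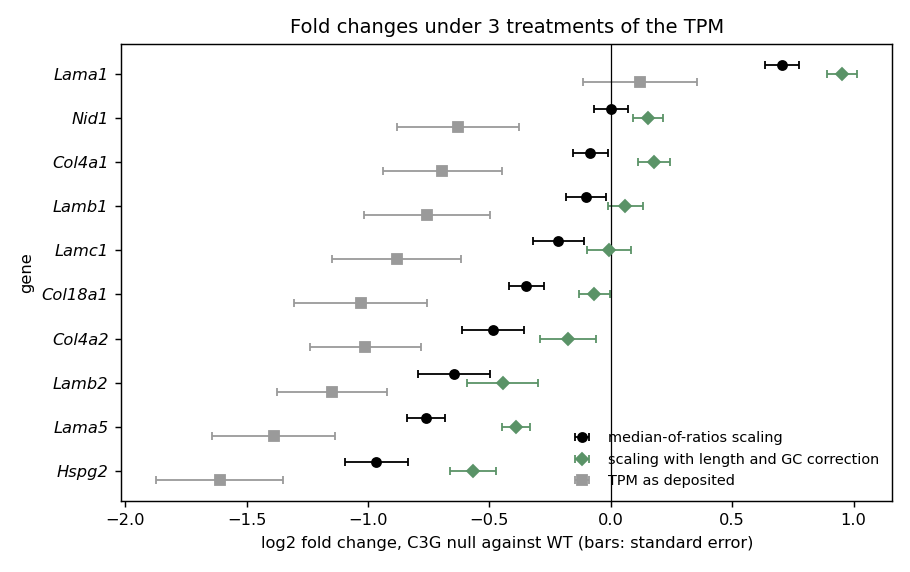
Log2 fold change of C3G null against WT for each gene, with the standard error as bars, in scaled TPM (circles), after the length and GC correction (diamonds) and with TPM as deposited (squares). Lama1 is above 0 and Lama5 and Hspg2 are below 0 in all 3, while Col18a1 moves from -1.03 as deposited to -0.07 after the correction.

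Lama1 encodes the laminin α1 chain, the α chain of the earliest embryonic laminin. Lama1 (ENSMUSG00000032796, chromosome 17 of GRCm38 from 67697259 to 67822647) had 4.16, 4.07 and 3.86 scaled TPM in WT 1 to 3 and 6.85 and 7.55 in C3G null 1 and 2. Both C3G null samples lay above all WT samples. limma gave a log2 fold change of 0.71 with a standard error of 0.069 and a 95% interval of 0.54 to 0.87 (adjusted p = 0.00128). Corrected for length and GC it was 0.95 (adjusted p = 0.000362). With TPM as deposited the values were 5.55, 4.96 and 4.26 in WT and 4.24 and 6.84 in C3G null samples. These overlap, and the log2 fold change of 0.12 did not pass (adjusted p = 0.642). The median of all tested genes was -0.55 on that scale. The protein-coding transcript Lama1-201 held between 92.9% and 100% of the gene's TPM in every sample.

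Lama5 encodes the α5 chain, the other main laminin α chain of ES cells and the epiblast. Lama5 (ENSMUSG00000015647, chromosome 2 of GRCm38 from 180176373 to 180225859) had 15.7, 14.4 and 13.6 scaled TPM in WT 1 to 3 and 7.92 and 8.41 in C3G null 1 and 2. The groups did not overlap. By limma Lama5 changed by -0.76 on the log2 scale with a standard error of 0.078 and a 95% interval of -0.95 to -0.57 (adjusted p = 0.00143). The change was -0.39 when corrected for length and GC (adjusted p = 0.00553) and -1.39 as deposited (adjusted p = 9.89e-07). Lama5-201 held at least 98.4% of the TPM in every sample, so the fall is that of a single transcript.

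Because both genes are measured in the same sample, their ratio does not depend on how samples are scaled. Lama1 was 0.265, 0.283 and 0.283 times Lama5 in WT 1 to 3 and 0.865 and 0.898 times Lama5 in C3G null 1 and 2. The difference in mean log2 ratio was 1.67, with an exact permutation p of 0.10 (two-sided, adjusted p = 0.30 over 3 ratios), which is the smallest p that 3 samples against 2 allow. Leaving out any sample in turn kept the difference between 1.64 and 1.70. Lama1 made up 21.7% ± 0.626 (SD, n = 3) of the TPM of both α chains in WT against 46.8% ± 0.646 (SD, n = 2) in C3G null cells. Their sum over Lamc1, the γ chain that both trimers contain, was 0.753 ± 0.0193 (SD, n = 3) in WT against 0.730 ± 0.0756 (SD, n = 2) in C3G null cells. C3G null 1 (0.784) lay above the WT range of 0.739 to 0.775, and C3G null 2 (0.677) lay below it.

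**Figure D3:**
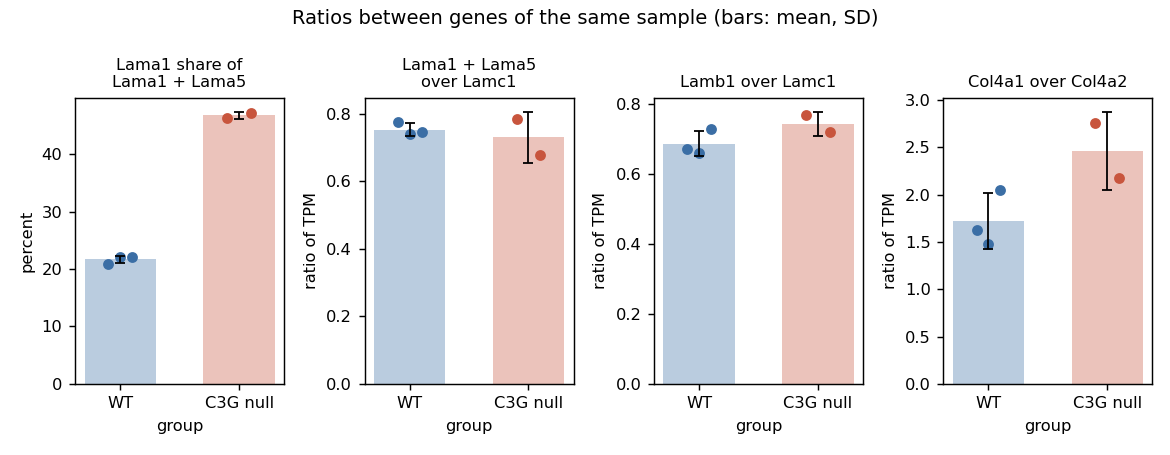
Ratios between genes of the same sample, with the group mean as a bar, the SD as an error bar and each sample as a point, for 3 WT and 2 C3G null samples. The Lama1 share of both α chains is at 21.0% to 22.1% in WT and 46.4% to 47.3% in C3G null samples, the sum of both over Lamc1 and Lamb1 over Lamc1 overlap between groups, and Col4a1 over Col4a2 is higher in both C3G null samples.

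Lamb1 and Lamc1 encode the β1 and γ1 chains, shared by most laminins. Lamb1 had 17.2, 16.5 and 17.1 scaled TPM in WT 1 to 3 and 14.5 and 17.0 in C3G null 1 and 2. Lamc1 had 25.6, 25.0 and 23.5 in WT and 18.8 and 23.6 in C3G null samples. For both genes C3G null 1 was lower than every WT sample and C3G null 2 within their range. Their log2 fold changes were -0.10 (95% interval -0.30 to 0.10, adjusted p = 0.376 from limma) and -0.22 (-0.47 to 0.04, 0.168). Without C3G null replicate 2, Lamc1 passed with -0.37 (adjusted p = 0.0486). As deposited both were lower, at -0.76 and -0.88 (adjusted p = 0.0112 and 0.00401). Lamb1 over Lamc1 was 0.687 ± 0.0361 (SD, n = 3) in WT against 0.744 ± 0.0346 (SD, n = 2) in C3G null cells, a log2 difference of 0.12 (exact permutation p = 0.30, two-sided, adjusted p = 0.30).

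Lamb2 encodes the β2 chain, which takes the place of β1 in laminins of the kidney glomerulus and the neuromuscular junction. It had 4.48, 3.90 and 5.34 scaled TPM in WT 1 to 3 and 2.12 and 3.02 in C3G null 1 and 2, with no overlap. Its limma log2 fold change of -0.65, with a standard error of 0.15, passed (adjusted p = 0.0219), and the value corrected for length and GC, -0.44, did not (adjusted p = 0.0638). As deposited it was -1.15 (adjusted p = 5.63e-06). Leaving out WT replicate 1 (adjusted p = 0.0590) or C3G null replicate 1 (0.102) also ended the call. Its transcripts were mixed, as the full-length Lamb2-201 held only 42.8% to 64.1% of the TPM, and the short retained-intron transcript Lamb2-202 held 29.5% in WT 3 and was listed at 0 in the other samples. With Lamb2-201 alone, an alternative chosen after seeing the data, the log2 fold change was -0.45 (adjusted p = 0.00614). Lamb2 was 21.2% ± 2.39 (SD, n = 3) of the TPM of both β chains in WT against 13.9% ± 1.68 (SD, n = 2) in C3G null cells.

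Type IV collagen of embryonic basement membranes is a trimer with α1 and α2 chains, made by Col4a1 and Col4a2. These genes lie head to head on chromosome 8 and are read in opposite directions from starts 21 bases apart. The annotated starts overlap, and the 22 bases between them are shown because both genes start there (RefSeq, GRCm38.p6, chr8:11312805-11312826, plus strand).
Col4a1 and Col4a2: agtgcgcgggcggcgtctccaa

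Col4a1 (ENSMUSG00000031502) had 8.21, 7.18 and 7.89 scaled TPM in WT 1 to 3 and 7.22 and 7.27 in C3G null 1 and 2. The groups overlapped, and the log2 fold change was -0.08 (95% interval -0.26 to 0.09, adjusted p = 0.414 from limma). Col4a2 (ENSMUSG00000031503) had 5.04, 4.86 and 3.84 in WT and 2.62 and 3.34 in C3G null samples, so that both C3G null samples were lower. limma gave -0.49 on the log2 scale with a standard error of 0.13 (adjusted p = 0.0334). The call was lost when corrected for length and GC (-0.18, adjusted p = 0.293) and on leaving out any sample but WT replicate 3. The adjusted p was then 0.0858 for WT replicate 1, 0.0912 for WT replicate 2, and 0.165 and 0.0518 for C3G null replicates 1 and 2 in the limma fit. It was also lost with quantile normalization (-0.42, adjusted p = 0.0681) and with no filter (adjusted p = 0.0893). As deposited both genes were lower, at -0.69 and -1.01 (adjusted p = 0.0134 and 9.05e-05).

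The ratio of Col4a1 to Col4a2 was 1.63, 1.48 and 2.05 in WT 1 to 3 and 2.76 and 2.17 in C3G null 1 and 2. Both C3G null samples lay above all WT samples, by little in C3G null 2. The log2 difference was 0.52 (exact permutation p = 0.20, two-sided, adjusted p = 0.30). Some of the TPM of both genes lay on short transcripts, since Col4a1-201 held 74.1% to 88.7% and Col4a2-201 held 83.1% to 100% of the gene. From the leading protein-coding transcripts the difference was 0.41 (exact permutation p = 0.10).

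Hspg2 encodes perlecan, a very large proteoglycan that carries heparan sulfate. Hspg2 (ENSMUSG00000028763, chromosome 4 of GRCm38 from 137468769 to 137570630) had 25.7, 22.2 and 18.9 scaled TPM in WT 1 to 3 and 10.3 and 11.4 in C3G null 1 and 2. Every C3G null value was below every WT value. Its limma log2 fold change of -0.97, with a standard error of 0.13 and a 95% interval of -1.28 to -0.65 (adjusted p = 0.00356), was the largest fall of the 10 genes in scaled TPM. The same held when corrected for length and GC (-0.57, adjusted p = 0.00774) and as deposited (-1.61, adjusted p = 2.17e-08). Hspg2 has the longest transcript of the 10. Its full-length transcripts Hspg2-201 and Hspg2-203 fell side by side, from 15.8 ± 4.00 to 4.76 ± 1.96 TPM as deposited and from 11.4 ± 2.42 to 3.40 ± 0.530 (SD, n = 3 and n = 2).

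Col18a1 encodes type XVIII collagen, a heparan sulfate-bearing collagen whose C-terminal fragment is endostatin. It was the highest of the 10 genes, with 51.7, 49.6 and 50.3 scaled TPM in WT 1 to 3 and 37.9 and 41.1 in C3G null 1 and 2. The groups did not overlap. By limma it changed by -0.35 on the log2 scale with a standard error of 0.071 (adjusted p = 0.0151), by -0.07 when corrected for length and GC (adjusted p = 0.459) and by -1.03 as deposited (adjusted p = 0.00105). It did not pass without WT replicate 2 (adjusted p = 0.0656) or without C3G null replicate 1 (0.0701). Col18a1-202, which is read from the upstream start, held 90.6% to 95.6% of the TPM in all samples, while Col18a1-201, read from the inner start, held at most 1.79%.

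Nid1 encodes nidogen, which binds the laminin γ1 chain and type IV collagen. It had 10.4, 10.7 and 9.96 scaled TPM in WT 1 to 3 and 9.86 and 10.9 in C3G null 1 and 2. The groups overlapped, and the log2 fold change was 0.0024 (95% interval -0.17 to 0.17, adjusted p = 0.982 from limma). As deposited Nid1 was lower, at -0.63 (adjusted p = 0.0273), which is close to the median of all genes. Nid2, the second nidogen gene, was not called either in scaled TPM, with 39.4 ± 3.07 (SD, n = 3) in WT against 41.1 ± 3.98 (SD, n = 2) in C3G null cells.

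Stretches of 150 bases before the annotated start are shown for Hspg2 and Lama5, which were lower under every treatment of the data listed here, and for Nid1, which was not called in scaled TPM. They are from RefSeq (GRCm38.p6) and read in the direction of the gene, with capitals for GC boxes (GGGCGG on either strand). Promoter sequences were matched for 8 of the 10 genes, all but Lama1 and Lamc1.
Hspg2, chr4:137468619-137468768, plus strand: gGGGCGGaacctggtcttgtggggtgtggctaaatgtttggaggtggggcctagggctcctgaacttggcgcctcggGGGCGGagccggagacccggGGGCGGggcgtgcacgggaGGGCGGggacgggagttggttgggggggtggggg
Lama5, chr2:180225860-180226009, minus strand: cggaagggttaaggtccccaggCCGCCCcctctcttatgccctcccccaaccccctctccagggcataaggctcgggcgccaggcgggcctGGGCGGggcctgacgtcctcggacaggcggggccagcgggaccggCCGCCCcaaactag
Nid1, chr13:13437401-13437550, plus strand: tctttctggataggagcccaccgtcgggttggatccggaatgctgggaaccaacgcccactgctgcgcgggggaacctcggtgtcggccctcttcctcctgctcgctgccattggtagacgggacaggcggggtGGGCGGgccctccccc

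The stretch held 4 GC boxes for Hspg2, 3 for Lama5 and 1 for Nid1. Of 32851 promoter stretches of the same length 28.6% held at least 1. A CCAAT box (CCAAT on either strand) was in that of Nid1 alone, and in 24.5% of all stretches. A TATA box (TATAAA on either strand) was in none of the 3, and in 7.57% of all. These matches describe the letters only.

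In scaled TPM the order of levels in WT was Col18a1, Lamc1, Hspg2, Lamb1, Lama5, Nid1, Col4a1, Col4a2, Lamb2 and Lama1. Lamc1 and Hspg2 overlapped in their ranges over samples, as did Col4a2 with Lamb2 and Lamb2 with Lama1, and the other neighbours were apart. In C3G null cells the order was Col18a1, Lamc1, Lamb1, Hspg2, Nid1, Lama5, Col4a1, Lama1, Col4a2 and Lamb2, with overlap between Hspg2 and Nid1, between Col4a1 and Lama1 and between Col4a2 and Lamb2. By group mean Lama1 was thus the lowest of the 10 in WT. Lamb2 lay below it in WT 2 (3.90 against 4.07), and Col4a2 in WT 3 (3.84 against 3.86). In C3G null cells the range of Lama1 overlapped that of Col4a1 and lay above those of Col4a2 and Lamb2. Lama5 lay above Nid1 in WT and below it in C3G null cells.

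The shape over the 5 samples was compared as the root mean square difference of centred log2 values. For Lamc1 the closest of 10831 protein-coding genes included Incenp and Gna14, at 0.0089 and 0.021. Lamb1 was the closest of the 10 genes, at 0.077, and Lama1 the farthest, at 0.46. For Col4a1 the closest were Stxbp4, Adamts10 and Phf14, each at 0.017. Lamb1 was again the closest of the 10 genes, at 0.076, while Col4a2 was at 0.25 and ranked 8748 of the 10831.

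Of 35 further basement membrane genes 15 were tested, with 11 lower, 2 higher and a median log2 fold change of -0.67. Among all tested genes 16.6% were lower and 14.1% higher, with a median of 0.0052. Of the 15, 5 passed the filter through WT samples only, and all 5 of these were among the lower, Tinagl1 included. Tinagl1, a secreted basement membrane protein, fell from 3.91 ± 0.132 scaled TPM (SD, n = 3) in WT to 0.768 ± 0.0563 (SD, n = 2) in C3G null cells (limma adjusted p = 0.000144). Agrn, the proteoglycan agrin, fell from 24.8 ± 1.32 to 15.1 ± 0.473 scaled TPM (adjusted p = 0.00159), and Sparc, a collagen-binding protein, from 31.7 ± 1.87 to 18.3 ± 1.11 (adjusted p = 0.00153). As deposited Agrn and Sparc were at -1.34 and -1.43 on the log2 scale, and both passed. Egfl7 and Fbln1 were higher by 0.62 and 0.47 on the log2 scale (adjusted p = 0.00861 and 0.00887), but at -0.01 and -0.07 as deposited, where neither passed. After the length and GC correction 7 of the 15 were lower, where 14.2% of all genes were.

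Of 14 tested genes for receptors of laminin and type IV collagen, 12 were lower and 1 higher, with a median of -0.68. Over all tested genes 16.6% were lower and 14.1% higher, and the median was 0.0052. Of the 14, 3 passed the filter through WT samples only and were among the lower. Itga3, an integrin α chain for laminins with the α5 chain, had 25.2 ± 0.637 scaled TPM (SD, n = 3) in WT against 3.40 ± 0.393 (SD, n = 2) in C3G null cells (adjusted p = 3.38e-05 from limma). Bcam, a receptor for the laminin α5 chain, had 41.9 ± 4.22 and 16.0 ± 1.47 (adjusted p = 0.000583). Itgb1, the β chain of most laminin-binding integrins, had 39.0 ± 1.17 and 22.6 ± 1.61 (adjusted p = 0.00123), and the glypican Gpc4 had 9.64 ± 0.975 and 2.86 ± 0.137 (0.000368). The log2 fold changes of Itga6, the α chain of a widely shared laminin receptor, and of Dag1, the dystroglycan gene, were -0.34 and -0.26 (adjusted p = 0.00942 and 0.0241). As deposited Itgb1 and Dag1 were at -1.44 and -0.92, and both passed, as did Bcam and Itga6. Gpc3 was higher, at 0.54 (adjusted p = 0.00333), and at -0.10 as deposited, where it did not pass.

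Of 22 tested genes for making and secreting type IV collagen, 7 were lower, 1 was higher and 14 did not pass, where 30.7% of all tested genes passed in either direction. Their median was 0.039. Serpinh1, the collagen chaperone HSP47, fell from 26.0 ± 2.18 scaled TPM (SD, n = 3) in WT to 12.6 ± 0.950 (SD, n = 2) in C3G null cells (adjusted p = 0.00109 from limma). The log2 fold changes of Loxl2, which crosslinks type IV collagen, and of Mia3, a cargo receptor for collagen export, were -0.71 and -0.28 (adjusted p = 0.00132 and 0.0189). As deposited Serpinh1, Loxl2 and Mia3 were at -1.64, -1.13 and -0.94, and each passed. Sec23a, a coat protein of export vesicles, was higher at 0.30 (adjusted p = 0.0248), and at -0.35 as deposited (adjusted p = 0.207). The count of lower genes was 2 without WT replicate 2, where 10.7% of all tested genes were lower. It was 4 without WT replicate 1 or WT replicate 3, where 13.5% and 14.7% of all tested genes were.

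Of 18 tested genes for heparan sulfate synthesis, the sugar chain of perlecan and agrin, 6 were lower and none was higher. Their median was -0.20, where 16.6% of all tested genes were lower and 14.1% higher. Of the 18, 3 passed the filter through WT samples only and 2 of these were among the lower, Ndst2 included. The largest falls were those of Extl3 and Ndst2, at -0.80 and -0.54 (adjusted p = 0.00111 and 0.00698 from limma), and Sulf2, which trims heparan sulfate, was at -0.32 (adjusted p = 0.0344). As deposited these 3 genes were at -1.28, -0.86 and -0.98, and each passed. The count was 3 without WT replicate 1 or WT replicate 2, where 13.5% and 10.7% of all tested genes were lower. Of 12 tested genes for remodelling, 7 were lower and 1 higher, with a median of -0.52, beside the same shares of all tested genes. The filter was passed through WT samples only by 5 of the 12. Of these, 4 were among the 7 lower, Bmp1 included. Bmp1, a procollagen proteinase, fell from 3.44 ± 0.0901 scaled TPM (SD, n = 3) to 0.182 ± 0.0393 (SD, n = 2), and Mmp14, a membrane-bound matrix proteinase, from 6.06 ± 0.291 to 1.04 ± 0.141 (adjusted p = 8.20e-05 and 0.000120). Adamts9 was higher at 0.51 (adjusted p = 0.00637), and at 0.02 as deposited (adjusted p = 0.924).

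Extl3, Ndst2, Loxl2, Bmp1 and Mmp14 lie on chromosome 14, where 56.7% of 441 tested genes were lower, against 15.2% of genes on the other chromosomes. None of the 10 genes lies on chromosome 14. Without that chromosome, the lower genes were 6 of the collagen list, 4 of the heparan sulfate list and 4 of the remodelling list, and the other lists had the same number.

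**Figure D4:**
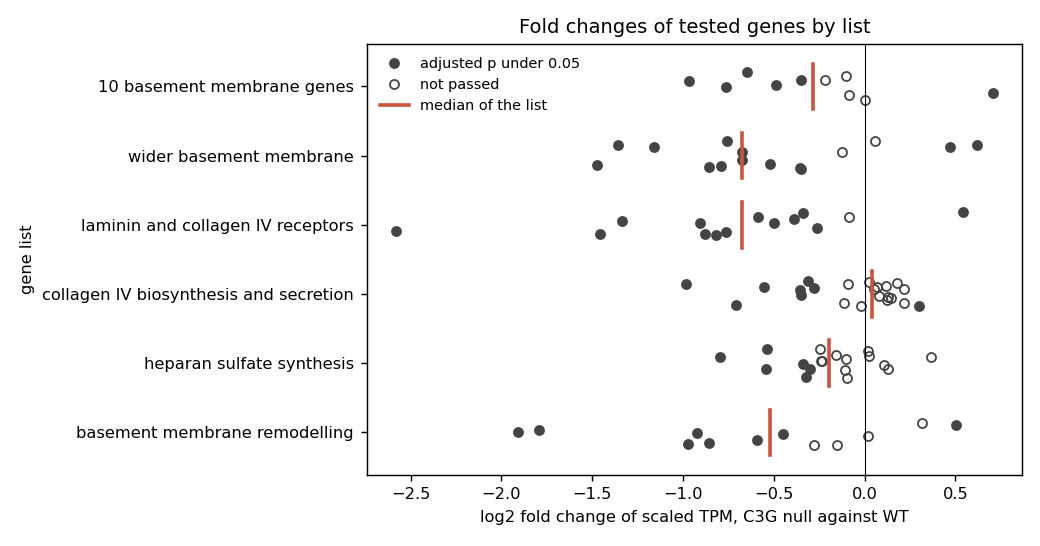
Log2 fold change of scaled TPM for each tested gene by list, filled where the adjusted p from limma was under 0.05, with the list median as a vertical line and random vertical jitter. The medians are -0.28 for the 10 genes, -0.67 for further basement membrane genes, -0.68 for receptors, 0.039 for collagen synthesis and secretion, -0.20 for heparan sulfate synthesis and -0.52 for remodelling. The further, receptor, heparan sulfate and remodelling lists hold genes that passed the filter through WT samples only. With no filter the medians were -0.28, -0.13, -0.45, -0.0089, -0.13 and -0.34 in the same order.

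The summed levels of genes listed as markers of other cell types moved with these genes, and their part in the results was not tested. Whether such cells were present was not tested either. With the filter of 5 TPM, 1 trophoblast and 1 endothelial marker were tested, and 0 of the extraembryonic endoderm and fibroblast markers. In bulk samples fewer cells of a type and less RNA per cell cannot be told apart. Lama1 moved with the sum of 10 markers of extraembryonic endoderm, which came to 4.97 to 5.15 scaled TPM in WT and 11.0 to 14.2 in C3G null samples (5.58 to 6.87 and 6.81 to 12.9 TPM as deposited). Of these, Cubn and Dab2 were tested and both were higher, although Dab2 did not pass as deposited (adjusted p = 0.325). Sox7 and Foxa2 overlapped between groups in scaled TPM, and 6 of the 10, Gata4, Gata6, Sox7, Foxa2, Sox17 and Afp, stayed under 1 TPM as deposited in every sample and none was at 0 throughout. Lama5, Hspg2 and the other falling genes moved with the sum of 6 trophoblast markers, which came to 16.5 to 18.8 scaled TPM in WT and 10.3 to 11.5 in C3G null samples, with Krt7, Cdx2 and Tfap2c lower of 4 tested. Krt7 and Cdx2 passed the filter through WT samples only, and Eomes, the other tested marker, had overlapping groups (adjusted p = 0.904). They also moved with the sum of 8 fibroblast markers, which came to 3.76 to 4.60 in WT and 1.66 to 1.73 in C3G null samples, where Col1a1, which passed the filter through WT samples only, and Thy1 were lower of 2 tested and the other 6 stayed under 1 TPM as deposited. The 5 endothelial markers summed to 8.42 to 8.79 in WT and 12.7 to 13.6 in C3G null samples, with Pecam1 and Tek higher of 2 tested and Emcn listed at 0 in all samples. Kdr, under the filter, had 0.442, 0.451 and 0.390 scaled TPM in WT and 0.113 and 0.155 in C3G null samples, and so lay lower. The sums of the fibroblast and trophoblast markers did not overlap between groups with TPM as deposited either, while those of the endothelial markers did.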

How the data were processed

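The authors sequenced total RNA from 3 WT and 2 C3G null samples, aligned paired reads to GRCm38, and deposited TPM for 142647 Ensembl transcripts, rounded to 2 decimals. The submitters' processing notes list bcl2fastq 2.20, FastQC 0.11.7, STAR 2.5.1b and RSEM 1.2.31 without their roles. Read counts were not used here, so depth is unknown.

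Of the transcripts 141524 were matched to GENCODE M21 and their TPM were summed by symbol, 55147 in all. Genes with at least 1 TPM in at least 2 samples were tested, 12518 in all. Samples were divided by median-of-ratios size factors and compared with limma 3.58.1 (R 4.3.3, mean-variance trend, two-sided) on log2(scaled TPM + 1), a scale that understates the change of low genes. An adjusted p is from this test with Benjamini-Hochberg adjustment over all tested genes, threshold 0.05. Its prior degrees of freedom were 3.11 beside 3 residual ones. As deposited, the prior was infinite, so p-values do not use a gene's own spread. Ratios between genes were compared by exact permutation of the samples.

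The 10 genes, the other lists, and the alternatives were chosen with earlier results of these data known. The genes named are the 10, Rapgef1, and from each other list the 2 called genes that rose most, the 2 that fell most, and those called with a mean of at least 20 TPM in either group, and for likeness the 3 closest genes to Lamc1 and Col4a1. Nid2 and the marker genes were named beyond this rule, and some genes that it selects are not reported here. Alternatives were TPM as deposited, quantile normalization, protein-coding TPM, omitting the filter or raising it to 5 TPM, a pseudocount of 0.1 or 5, no trend, each sample left out, a replicate block, a length and GC correction (loess, span 0.5) alone and with the block, and, added after seeing the data, the leading transcript of each gene. Tables and plots used pandas 2.3.3 and matplotlib 3.10.9 under Python 3.11.15.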

Additional observations from a re-analysis of the deposited data

How the results depend on the processing

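Lama5 and Hspg2 kept their direction and call under all 17 alternatives, with log2 fold changes from -1.39 to -0.39 and from -1.61 to -0.57. Lama1 kept its direction under all 17 and its call under 16, failing as deposited. Of all tested genes 56.8% were lower as deposited, 39.1% with protein-coding TPM, 5.74% with no filter and 17.9% with the filter of 5 TPM. The share was 14.5% with the replicate block, 14.2% with the length and GC correction and 11.5% with both. With 1 WT sample left out it was 10.7% to 14.7%. The count of lower genes among the 10 was 5, and 9 as deposited and 8 with protein-coding TPM. It was 3 with no filter, where more genes were tested, and 2 with the length and GC correction, alone or with a replicate block. With 1 sample left out it was between 2 and 5, lowest without C3G null replicate 1, which leaves 1 sample in that group that is assumed to vary like WT. The count of higher genes was 1, and 0 as deposited. Nid1 changed sign to -0.63 as deposited, -0.21 with protein-coding TPM, -0.0068 with quantile normalization, -0.037 with a filter of 5 TPM, -0.022 with the replicate block, -0.023 without WT replicate 3 and -0.061 without C3G null replicate 2, with leave-one-out values from -0.061 to 0.068. Lamb1 changed sign to 0.060 and Col4a1 to 0.18 with the length and GC correction, to 0.075 and 0.20 with the block added, and Lamb1 to 0.0041 without C3G null replicate 1. None of these sign changes had a called value in scaled TPM, and the cause was not tested.

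For the further basement membrane list, 11 of 15 tested genes were lower. With the filter of 5 TPM they were 4 of 6 tested, and with no filter 8 of 34. They were 7 with the length and GC correction, 7 with the block added, and between 8 and 9 with 1 WT sample left out. Higher genes were 2, and 0 as deposited, 1 with the filter of 5 TPM and between 1 and 2 with 1 sample left out. The receptor list had 12 lower, and 7 with the block and the correction for length and GC. The collagen synthesis list had 7 lower of 22 tested, and 14 as deposited, where 56.8% of all genes were lower. With no filter it had 3 of 25, where 5.74% of all genes were lower. With the filter of 5 TPM it had 3 of 17, where 17.9% of all genes were lower. It had 4 with the length and GC correction, 4 with the block alone, 4 when combined, and between 2 and 4 with 1 WT sample left out. The heparan sulfate list had 6 lower of 18 tested, and 14 as deposited. With protein-coding TPM it had 12, where 39.1% of all genes were lower, and with no filter 3 of 20. It had 3 with the length and GC correction and the block, and between 3 and 5 with 1 WT sample left out. The remodelling list had 7 lower, and 3 with the filter of 5 TPM, where fewer genes were tested. Each ratio kept its direction with every sample left out.

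Replicate numbers are shared by the groups, but the labels do not say that they mark a batch. Deviations from the group means had correlations of -0.18 for the samples numbered 1 and 0.18 for those numbered 2. With 2 C3G null samples the deviations of that group mirror each other, so these values cannot show whether a batch is shared. The block moved the lower genes from 5 to 4, as Col18a1 no longer passed. Over all genes, calls went from 1760 higher and 2083 lower to 181 and 7109 as deposited, to 705 and 4231 with protein-coding TPM, and with 1 sample left out to as few as 891 and 1338, without WT replicate 2. Depth is not known, so what it limits could not be assessed.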
